A study of Homo sapiens with 12 samples.

Results

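The complement components and regulators measured here were 9 genes: C3, CFB, C1R, C1S, CFI, SERPING1, CD46, CD55 and CD59. They were found by gene name among the probes that carry no control mark, which gave 16 probes of the 34127 on the array (9 of 25992 gene names). One-color Agilent arrays were hybridized with RNA of human proximal tubular cells (HPTC) labelled HK-2, an established line immortalized with papillomavirus genes, or RPTEC/TERT1, an established line immortalized with telomerase. All cells were starved of serum and supplements for 24 h. For a further 24 h they were left without treatment (control), stimulated with the pro-inflammatory cytokine IL-1β (10 ng/mL) or given Empa (empagliflozin, 500 nM). Empa is an inhibitor of the sodium-glucose cotransporter SGLT2. No array carries cells that received both IL-1β and Empa. There were 12 arrays, 2 per line label and treatment, on 4 slides. A slide held the control, IL-1β and Empa arrays of 1 line label and 1 replicate number, so each treated array was set against the control of its own slide.

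Complement is a cascade of plasma proteins that tags surfaces for clearance and builds a pore in membranes. C1R and C1S are the serine proteases that start the classical pathway, C3 is the protein on which all pathways meet, and CFB forms the alternative pathway's C3-cleaving enzyme. The remaining members restrain it: CFI is the protease that cuts C3b and C4b, SERPING1 (C1 inhibitor) blocks C1R and C1S, CD46 and CD55 act on C3 convertases at the cell surface, and CD59 blocks the membrane pore. Tubular epithelial cells are known to make several of these proteins themselves.

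The line labels did not sort the arrays by expression, which bears on every value that follows. Over the 15329 probes whose signal stood well above background everywhere, the controls of HK-2 replicate 1 and of RPTEC/TERT1 replicate 2 correlated with r = 0.984, and those of HK-2 replicate 2 and of RPTEC/TERT1 replicate 1 with r = 0.973. Within a label r was 0.880 for HK-2 and 0.875 for RPTEC/TERT1. Slides are therefore given in the order HK-2 replicate 1, RPTEC/TERT1 replicate 2, HK-2 replicate 2, RPTEC/TERT1 replicate 1, and a line is named only as a label. Of 16 tubular epithelial markers with a value on every array, 13 were well above background on each array of the first and second of these slides and 11 on each array of the others. CUBN, SLC5A1 and HNF4A were above it nowhere. Of the thick limb and collecting duct markers sought, AQP2 was well above background on no array and UMOD did not have a value on every array. SLC12A1, a cotransporter of the thick ascending limb, had log2 values of 4.68 and 5.36 on the control arrays of the first and second slides. On those of the others it read -8.29, the floor. With IL-1β it read -0.04 and -0.08 on the first and second slides, where C3, CFB and CD55 differed most. The share of these differences in the results was not tested.

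The sequences around the start of 4 members are shown because CFI and CD59 were called with IL-1β and CFB and C1R had large differences on 2 slides. They are RefSeq windows of GRCh38.p14, from 250 bases before to 50 bases after a transcript start, and 6 of the 9 members had one. Letters in capitals mark matches to a κB consensus (bound by NF-κB), TGANTCA (AP-1), TTNNGNAA (C/EBP) or TTCNNNGAA (STAT), searched on both strands. The first window listed for each gene is printed, and no matches overlap in it.
CFB, chr6:31945845-31946144, + strand: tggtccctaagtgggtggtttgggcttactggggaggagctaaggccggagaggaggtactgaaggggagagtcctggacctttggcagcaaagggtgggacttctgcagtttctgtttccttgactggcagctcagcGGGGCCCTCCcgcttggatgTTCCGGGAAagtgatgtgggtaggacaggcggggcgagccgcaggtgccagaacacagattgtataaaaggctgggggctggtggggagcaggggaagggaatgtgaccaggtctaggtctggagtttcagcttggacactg
C1R, chr12:7092396-7092695, - strand: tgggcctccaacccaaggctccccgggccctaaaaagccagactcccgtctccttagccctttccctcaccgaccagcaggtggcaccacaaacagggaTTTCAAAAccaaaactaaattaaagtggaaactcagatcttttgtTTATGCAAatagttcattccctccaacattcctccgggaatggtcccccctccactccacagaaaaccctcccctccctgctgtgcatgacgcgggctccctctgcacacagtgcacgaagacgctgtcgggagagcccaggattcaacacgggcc
CFI, chr4:109801950-109802249, - strand: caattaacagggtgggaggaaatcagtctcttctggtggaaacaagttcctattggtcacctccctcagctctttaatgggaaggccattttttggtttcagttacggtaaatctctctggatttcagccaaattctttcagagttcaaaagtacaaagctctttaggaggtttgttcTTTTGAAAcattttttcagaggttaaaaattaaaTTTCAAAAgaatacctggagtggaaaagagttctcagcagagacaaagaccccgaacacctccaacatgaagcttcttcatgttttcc
CD59, chr11:33736430-33736729, - strand: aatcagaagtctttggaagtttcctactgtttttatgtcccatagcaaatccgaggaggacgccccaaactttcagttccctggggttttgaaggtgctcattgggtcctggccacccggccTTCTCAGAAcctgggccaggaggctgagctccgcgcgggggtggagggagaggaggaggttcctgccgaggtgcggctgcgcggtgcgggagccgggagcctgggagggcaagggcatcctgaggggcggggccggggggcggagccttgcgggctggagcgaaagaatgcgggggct

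In the CFB window, the κB consensus matched GGGGCCCTCC 112 bases before the start, and TTCNNNGAA matched 92 bases before it. The C1R and CFI windows printed held TTNNGNAA and no κB consensus. The other C1R window (chr12:7091844-7092143) held TTNNGNAA and TTCNNNGAA at 1 position each. The printed CD59 window held TTCNNNGAA 128 bases before the start. RefSeq lists 4 windows for CD59, of which one (chr11:33722678-33722977) held TGANTCA at 3 positions and another (chr11:33722900-33723199) TTNNGNAA at 2. Of 35114 promoter windows, 11.3% held the κB consensus, 7.71% TGANTCA, 36.8% TTNNGNAA and 7.66% TTCNNNGAA. The CD55 window and both CD46 windows held no match. CD55 also had large differences on the first and second slides, and its window is not printed.

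With IL-1β, 2 of the 9 members passed the threshold of limma's test over 15717 genes with the slide as a block (adjusted p under 0.05, Benjamini-Hochberg). CD59 rose and CFI fell. Over all genes tested 11.6% were called, 5.36% higher and 6.2% lower. On 4 of 4 slides the IL-1β array lay above its control for 5 members, CD59 and the uncalled C3, CFB, C1R and CD55 (18.7% of all genes), and below it for 1, CFI (20.1% of all genes). The median log2 difference was 1.86 over the 9 members and -0.03 over all genes. Without the slide as a block 0 members and 7 genes (0.0445%) were called by limma. In that fit 2 members had an unadjusted p under 0.05. No share of all genes is given at that level, so this count does not set the members apart. The unpaired test that the methods state for other assays is called the methods' t-test here. It called 0 members and 45 genes after adjustment. Before adjustment it called 1 of the 9 members and 1966 of the 15717 genes. Leaving out the IL-1β array of RPTEC/TERT1 replicate 1, or that of HK-2 replicate 2, gave more members called higher. The count of all genes called also changed with the array left out, so this rise alone does not set the members apart. By the limma fit with the slide block, 7 of the 9 members had an unadjusted p under 0.05, against 26.9% of all genes.

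**Figure D1:**
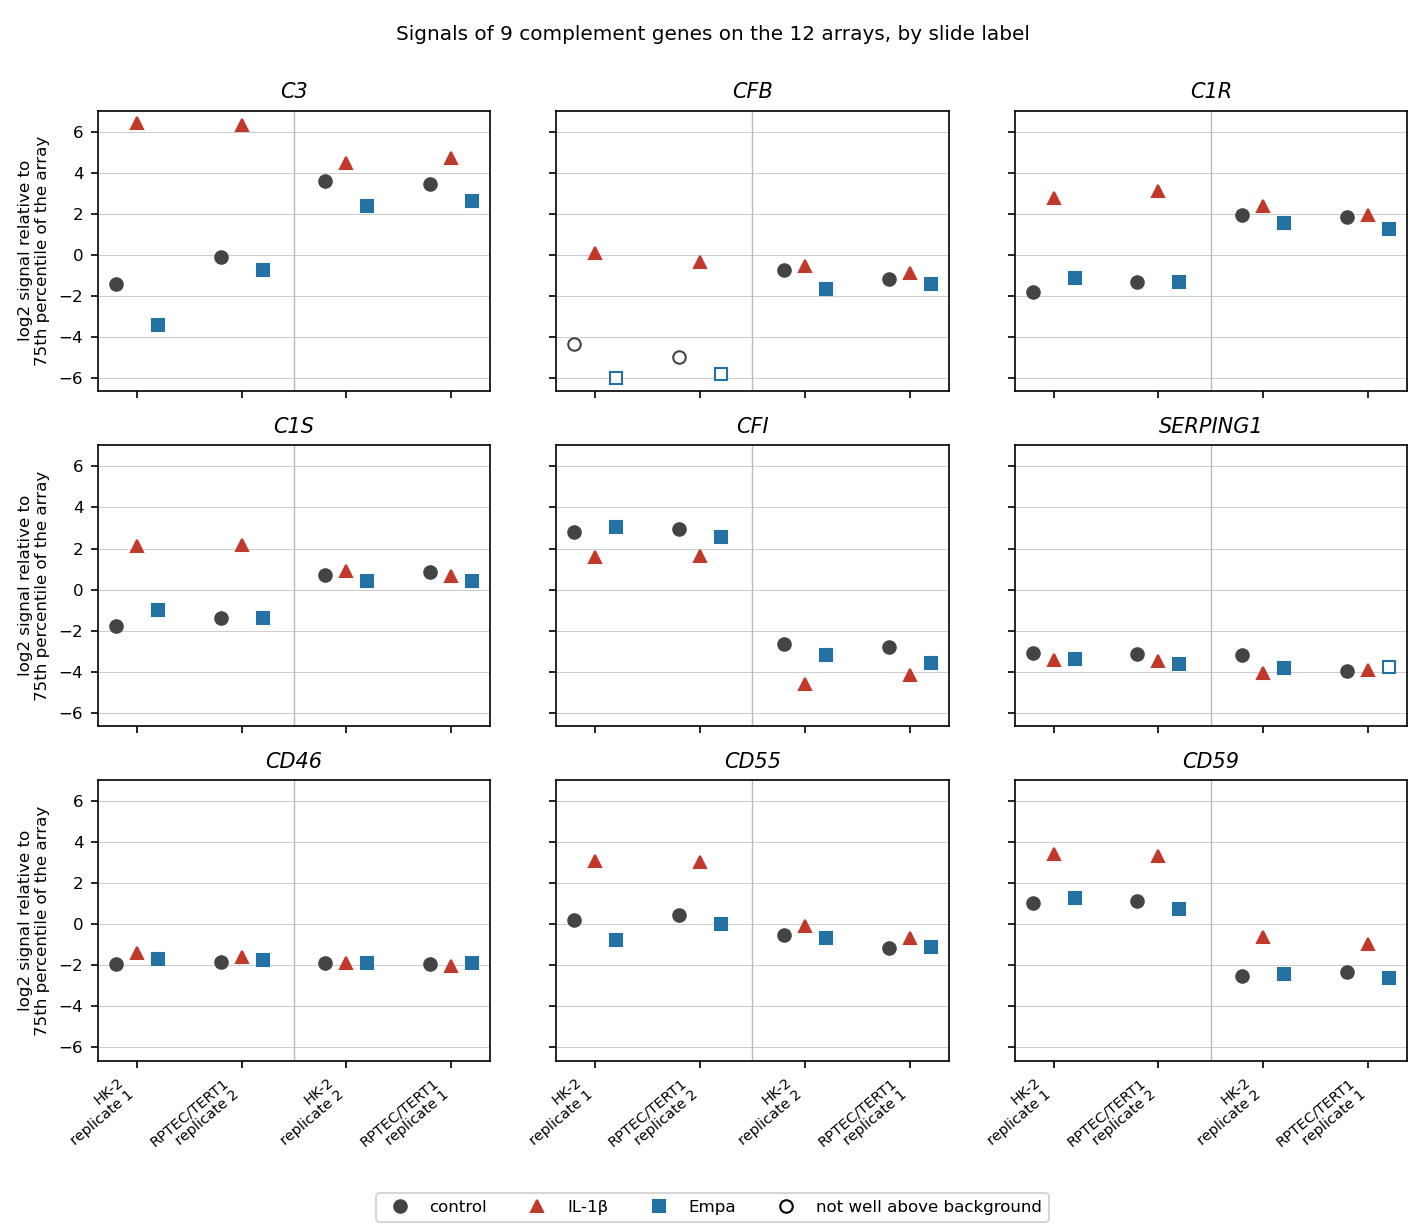
log2 signal relative to the array's 75th percentile (y axis) of the brightest tested probe of each member on the 4 slides (x axis), with the control (grey circle), IL-1β (red triangle) and Empa (blue square) arrays of a slide side by side, 1 point per array. Open symbols are not well above background. CFI and CD59 stood high on the 2 slides left of the line and low on those right of it, and C3, CFB, C1R and C1S did the opposite in the controls.

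C3, the central component of the cascade, had the largest mean difference of the 9 members, which did not pass the threshold. Levels are log2 values relative to the 75th percentile of the array. In the controls C3 read -1.42, -0.11, 3.58 and 3.43 on the 4 slides in the order given, and with IL-1β 6.40, 6.33, 4.47 and 4.74. All 4 IL-1β arrays lay above all 4 control arrays, as they did for 4.66% of genes. The IL-1β signal was 226-fold and 86.8-fold the control on HK-2 replicate 1 and on RPTEC/TERT1 replicate 2, and 1.85-fold and 2.48-fold on HK-2 replicate 2 and on RPTEC/TERT1 replicate 1. The mean log2 difference was 4.12 ± 1.22 (SE, 4 slides) with an adjusted p of 0.0584 by limma. The slides with a low C3 control were those with the large difference, and the IL-1β arrays differed among themselves by 1.94 on the log2 scale against 4.99 for the controls.

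A further C3 probe, in another stretch of the gene, gave the same order. Its signal in the controls was -4.24 (not well above background), -2.81, 1.14 and 1.11, and with IL-1β 3.91, 3.80, 1.85 and 2.39. On HK-2 replicate 1 this is at least 285-fold. Its mean log2 difference was 4.19 ± 1.19 (SE) with a limma adjusted p of 0.0529, computed over the 19664 probes that passed the signal filter. The brighter probe lies at chr19:6679177-6679434 and the other at chr19:6686136-6686195 (hg19, both on the minus strand).

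CFB, which supplies the enzyme of the alternative pathway, was measured by 1 probe at chr6:31918992-31919147 (hg19). Its control values were -4.33 and -5.00, neither well above background, on HK-2 replicate 1 and on RPTEC/TERT1 replicate 2, and -0.72 and -1.20 on HK-2 replicate 2 and on RPTEC/TERT1 replicate 1. With IL-1β the values in the same order were 0.06, -0.33, -0.55 and -0.90. The CFB signal with IL-1β was thus at least 21.0-fold and at least 25.3-fold the control on the first and second slides, and 1.13-fold and 1.23-fold on the others. The fitted mean of 2.38 ± 0.90 (SE, adjusted p = 0.122 by limma) rests in part on these dim controls. It was 1.16 after normexp background correction and 0.79 in the authors' table, and 1.58 to 3.19 with an array left out. Without the IL-1β array of RPTEC/TERT1 replicate 1, which gave the highest of these, CFB had a limma adjusted p of 0.0438. The IL-1β arrays lay within 0.96 of each other.

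The initiating proteases C1R and C1S followed each other across the arrays. C1R read -1.82, -1.35, 1.96 and 1.82 in the controls and 2.77, 3.11, 2.39 and 1.93 with IL-1β, a change of 24.1-fold, 22.1-fold, 1.35-fold and 1.08-fold. C1S read -1.77, -1.36, 0.70 and 0.85 in the controls and 2.11, 2.19, 0.91 and 0.64 with IL-1β, or 14.7-fold, 11.8-fold, 1.16-fold and 0.863-fold. The difference for C1S on RPTEC/TERT1 replicate 1 thus ran the other way. Neither gene passed: the mean log2 difference was 2.40 ± 0.75 (SE, adjusted p = 0.0699) for C1R and 1.86 ± 0.66 (adjusted p = 0.104) for C1S by limma. The probes lie close together on chromosome 12, C1S at chr12:7178093-7178152 on the plus strand and C1R at chr12:7187836-7187895 on the minus strand (hg19). After centring on the slide, their values over the 12 arrays, which share slides, correlated with r = 0.997. A dimmer C1R probe (chr12:7187567-7187626) read -2.85, -4.52 (not well above background), -0.94 and -0.57 in the controls and 0.15, 0.10, -0.17 and -0.27 with IL-1β. Its IL-1β arrays were again closer to each other than its controls. It gave a mean difference of 2.17 ± 0.65 (adjusted p = 0.0624), and a second C1S probe was well above background on 0 arrays.

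**Figure D2:**
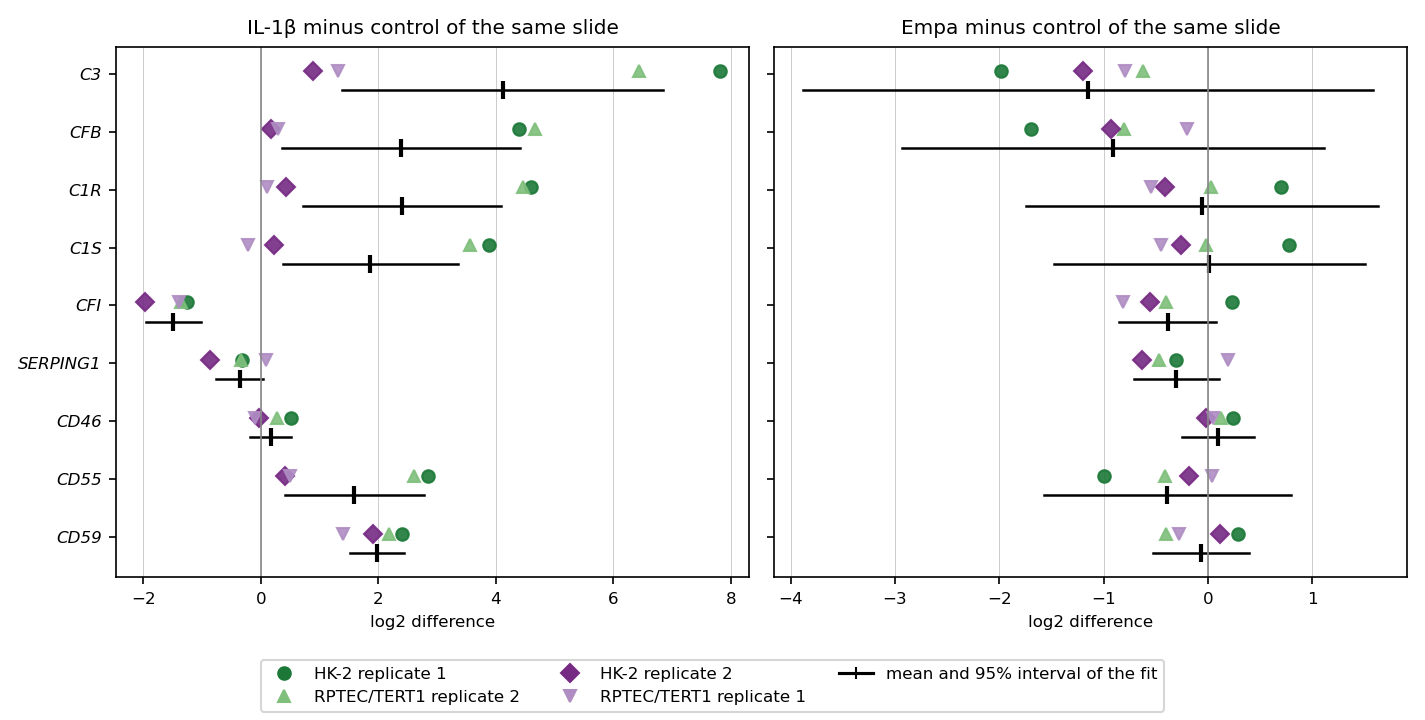
Differences from the control array of the same slide on the log2 scale (x axis) for each member (y axis), with IL-1β on the left and Empa on the right. Colored symbols are the 4 slides, and the black bar below them is the mean of the limma fit with its 95% interval. CD59 and CFI have slide values close together and away from 0 with IL-1β, while those of C3, CFB, C1R, C1S and CD55 fall into 2 pairs. The x axes of the panels differ.

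CD55 (decay-accelerating factor), which speeds the decay of C3 convertases, showed the same split at its probe (chr1:207510071-207510130 on hg19). Its control values were 0.23, 0.46, -0.50 and -1.16 and its IL-1β values 3.09, 3.06, -0.08 and -0.65. This is 7.23-fold and 6.09-fold on HK-2 replicate 1 and on RPTEC/TERT1 replicate 2, and 1.34-fold and 1.42-fold on HK-2 replicate 2 and on RPTEC/TERT1 replicate 1. The mean log2 difference was 1.60 ± 0.53 (SE) with a limma adjusted p of 0.0822. Unlike C3, CD55 was brightest in the IL-1β arrays of the slides whose control was also brighter.

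CD59, the inhibitor of the membrane pore, rose on every slide, from very different control levels. At its probe (chr11:33724746-33724805, minus strand of hg19) the controls read 1.03, 1.15, -2.52 and -2.34, and the IL-1β arrays 3.43, 3.34, -0.61 and -0.94. The rise was 5.31-fold, 4.56-fold, 3.75-fold and 2.63-fold. The mean log2 difference was 1.97 ± 0.20 (SE, 95% interval 1.51 to 2.43) with an adjusted p of 0.000872 by limma with the slide block. Without that block the same mean had a limma adjusted p of 1. The controls spanned 3.67 on the log2 scale, so IL-1β arrays of HK-2 replicate 2 and of RPTEC/TERT1 replicate 1 stayed below the controls of the other slides.

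CFI, the protease that inactivates C3b, fell on every slide. Control values were 2.82, 2.97, -2.66 and -2.78, and IL-1β values 1.58, 1.62, -4.63 and -4.17. The IL-1β signal was 0.421-fold, 0.392-fold, 0.256-fold and 0.383-fold the control. The mean log2 difference was -1.49 ± 0.21 (SE, 95% interval -1.95 to -1.02), with a limma adjusted p of 0.00306 with the slide block and of 1 without it. A dimmer CFI probe (chr4:110670656-110670715, against chr4:110662064-110662123 for the brighter one, both on the minus strand of hg19) gave -1.81 ± 0.47 with a limma adjusted p of 0.0412, a mean that takes in dim arrays. It read 0.36 and 0.32 in the controls of HK-2 replicate 1 and of RPTEC/TERT1 replicate 2 and -0.83 and -1.31 with IL-1β. On RPTEC/TERT1 replicate 1 its IL-1β array was not well above background and its control was at least 1.75-fold brighter. On HK-2 replicate 2 neither array was, so no fold is given. The control levels of CFI spanned 5.75 on the log2 scale between slides, the widest range among the members, and were high on the slides where those of C3 were low.

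SERPING1 at its brightest probe and CD46 gave small differences. SERPING1 (chr11:57367781-57367840) ran between -4.06 and -3.10 on the 12 arrays, and its log2 differences with IL-1β were -0.33, -0.34, -0.86 and 0.08. Its mean of -0.36 ± 0.18 had a limma adjusted p of 0.24, and its other 3 probes were well above background on 7, 2 and 1 arrays. For the probe with 2, these were the controls of HK-2 replicate 1 and of RPTEC/TERT1 replicate 2. They were at least 2.19-fold and at least 2.76-fold brighter than the IL-1β arrays. The probe with 7 was instead at least 1.33-fold higher with IL-1β on HK-2 replicate 1, and its mean was -0.06 ± 0.35. CD46 (chr1:207940437-207940496) read -1.93, -1.85, -1.88 and -1.93 in the controls, which were within 0.08 of each other, the narrowest range of the 9 members. IL-1β changed CD46 by 0.51, 0.28, -0.02 and -0.11 on the log2 scale, with a mean of 0.17 (95% interval -0.18 to 0.51, limma adjusted p = 0.546).

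**Figure D3:**
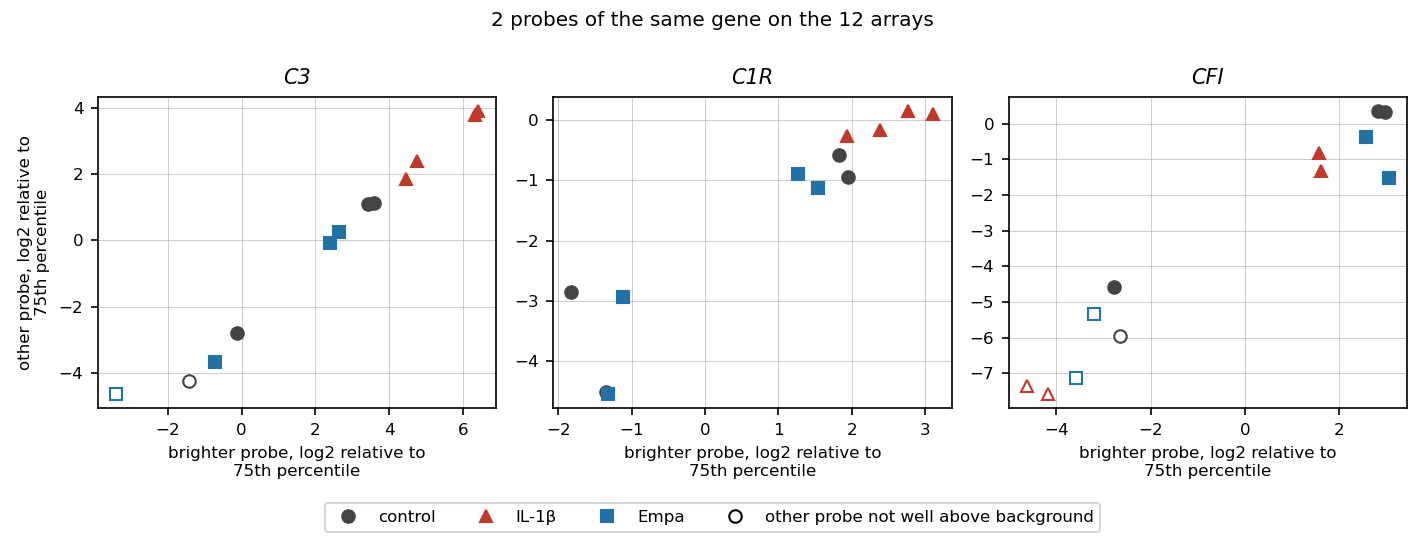
log2 signals of 2 probes of the same gene on the 12 arrays for C3, C1R and CFI, with the brighter probe on the x axis and the other on the y axis, both relative to the array's 75th percentile. Symbols are as in the plot of levels, and open symbols mark arrays on which the other probe was not well above background. The C3 probes run close to a line, while for CFI the Empa array of HK-2 replicate 1 read 3.06 on the brighter probe, the highest of the 12 arrays, and -1.53 on the other.

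With Empa, 0 of the 9 members passed limma's test with the slide block, and 0 had an unadjusted p under 0.05, against 11.9% of all genes. The methods' t-test also called 0 members before adjustment, against 635 of all genes, and 0 members and 0 genes after it. By limma with the slide block 0.00636% of all genes were called. The median log2 difference was -0.30 over the members and 0.01 over all genes. C3 and CFB were below the control on 4 of 4 slides, as were 12.2% of all genes.

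C3 read -3.40, -0.73, 2.38 and 2.64 with Empa, which is 0.253-fold, 0.651-fold, 0.437-fold and 0.578-fold the control of the slide. The mean log2 difference was -1.15 ± 1.22 (SE, 95% interval -3.88 to 1.59) with a limma adjusted p of 0.697. Without the Empa array of HK-2 replicate 1 it was -0.25, and without that of RPTEC/TERT1 replicate 1 it was -1.73. The fit estimates 1 spread for both treatments of a gene, so the differing IL-1β values of C3 widen this interval. CFB read -6.02, -5.80, -1.65 and -1.40 with Empa. Both the Empa and the control array were not well above background on the first and second slides, so no fold is given there, and the signal was 0.524-fold and 0.870-fold the control on the others. Its mean of -0.91 ± 0.90 had a limma adjusted p of 0.681, and was -0.31 without the Empa array of HK-2 replicate 1. C3 and CFB stand on a list that the study drew from these arrays by the signs of both treatments, so their direction is not independent evidence. On 4 of 4 slides, 228 of the genes tested (1.45%) had an IL-1β signal over the control and an Empa signal under it, and both comparisons share their control arrays.

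Among the other members, Empa moved single slides in both directions. The CD55 signal was 0.50-fold, 0.750-fold, 0.883-fold and 1.03-fold the control. The log2 differences of CFI were 0.23, -0.41, -0.55 and -0.81, with a mean of -0.38. Its dimmer probe differed on HK-2 replicate 1, where it read -1.89 (0.270-fold) against 0.23 for the brighter one, and its mean was -1.13 with a limma adjusted p of 0.42. Those of C1R were 0.70, 0.03, -0.41 and -0.55 and those of C1S 0.78, -0.02, -0.26 and -0.45. CD59, called with IL-1β, read 1.31, 0.75, -2.40 and -2.61 with Empa. Its differences were 0.28, -0.40, 0.12 and -0.28, positive on both slides labelled HK-2 and negative on both labelled RPTEC/TERT1. The difference between the labels was -0.54 (95% interval -1.56 to 0.47, limma adjusted p = 0.999), and the 95% interval of the mean of all slides ran from -0.53 to 0.39. CD46 differed by at most 0.24 in either direction (mean 0.10, 95% interval -0.25 to 0.45). The mean for SERPING1 was -0.30 ± 0.18 with a limma adjusted p of 0.517. Its dimmer probes disagreed on HK-2 replicate 1. The probe well above background on 2 arrays was at least 3.31-fold lower with Empa, and those with 7 and 1 were at least 2.36-fold higher. On RPTEC/TERT1 replicate 2 the probe with 2 was at least 2.35-fold lower.

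By line label, 0 members were called by limma in the fit with 6 groups and the slide block, for either treatment or for the difference between the labels. At an unadjusted p under 0.05 there were 2 members for IL-1β under each label (CFI and CD59) and 0 in the comparisons with Empa and between labels. No share of all genes at that unadjusted level is given for this fit, so these counts do not set the members apart. Over all genes that fit called 0.293% for IL-1β under the HK-2 label and 0.255% under the RPTEC/TERT1 label. The CD59 difference was 2.16 ± 0.31 (SE, 2 slides) under the HK-2 label (adjusted p = 0.0508) and 1.79 ± 0.31 under RPTEC/TERT1 (adjusted p = 0.0805), neither of which passed. When only the arrays labelled HK-2 were fitted, CD59 had a limma adjusted p of 0.0442. The difference of the labels for CD59 was -0.37 (95% interval -1.38 to 0.65). For C3 the IL-1β effect was 4.35 ± 1.90 and 3.88 ± 1.90 under the labels, with a difference of -0.48 (95% interval -6.74 to 5.78). Control levels were not called between the labels for any member by limma (0 at an unadjusted p under 0.05), and the interval for CFI, -8.22 to 8.24, shows how far its replicates lay apart.

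Among 52 other complement genes, 51 were on the array and 22 were tested. With IL-1β, 1 was called higher and 3 lower, against 5.36% and 6.2% of all genes, and the median log2 difference was -0.16. PTX3, a pentraxin that binds C1q, rose by 5.97 ± 1.14 (SE, adjusted p = 0.0116 by limma). That mean rests in part on the controls of the first and second slides, which were not well above background. The PTX3 signal with IL-1β was at least 542-fold and at least 386-fold the control there, and 10.3-fold and 6.53-fold on the others. C5, the component from which the pore assembles, fell by 1.63 on the log2 scale (SE 0.25, adjusted p = 0.00484). C5 was not well above background on the IL-1β arrays of the first and second slides, where its control was at least 4.41-fold and at least 4.72-fold brighter. On the other slides its log2 differences were -0.92 and -1.21. C4B fell by 1.25 (SE 0.21, adjusted p = 0.00658), with -0.77, -0.82, -1.78 and -1.63 on the slides. C4A is a near-identical copy of C4B, so the signal of this probe cannot be assigned to C4B with certainty. ITGAX, a chain of complement receptor CR4, fell by 0.97 (SE 0.25, adjusted p = 0.0375). With Empa 0 of the 22 passed by limma, and 2 had an unadjusted p under 0.05, against 11.9% of all genes. As a check of the ligand, 7 of 8 tested IL-1β response genes were called higher by limma. Among them CXCL8 rose by 7.10 ± 1.09 and NFKBIA by 3.77 ± 0.44. IRF1 was not called (mean 1.76, limma adjusted p = 0.123), though its IL-1β array lay above its control on 4 of 4 slides.

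**Figure D4:**
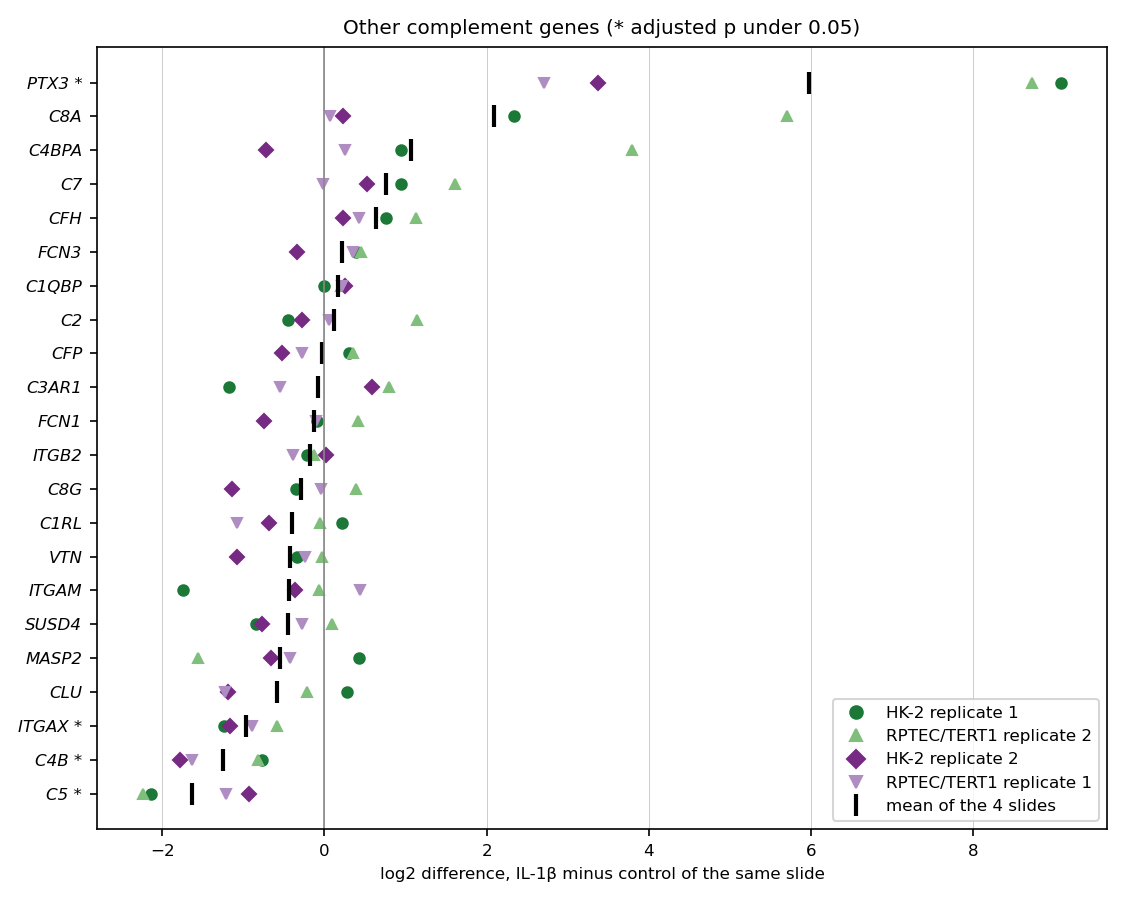
Difference between the IL-1β and control arrays of a slide on the log2 scale (x axis) for the 22 other complement genes tested (y axis), ordered by their mean. Colored symbols are the 4 slides and black ticks their mean, and an asterisk marks a limma adjusted p under 0.05. PTX3 lies far right on all slides, and C5, C4B and ITGAX lie left of 0 on all slides.

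The genes most like C3 and CFB were sought among 12612 genes well above background on all 12 arrays, by the Pearson correlation of values centred on the slide mean. The arrays share slides and treatments, so these values are descriptions. For C3 they were RNF217 (r = 0.997), CD55 (r = 0.993) and FADS3 (r = 0.993), and for CFB they were IL32 (r = 0.994), CD55 (r = 0.993) and YBX3 (r = 0.992). IL32, a pro-inflammatory cytokine, differed from control by 5.88, 5.44, -0.33 and 0.09 on the log2 scale with IL-1β, and RNF217 by 1.33, 1.23, 0.05 and 0.26. As for CFB, the large differences were those of HK-2 replicate 1 and of RPTEC/TERT1 replicate 2. Among the members, C3 and CFB correlated with r = 0.986, and C3 and CFI with r = -0.714.

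Markers of cells other than tubular epithelium were also read. The summed signal of 5 leukocyte markers, in multiples of the 75th percentile, was 0.902, 0.563, 4.04 and 3.93 in the controls and 2.72, 2.05, 3.09 and 3.94 with IL-1β, and ran from 0.401 to 3.41 with Empa. It was thus higher with IL-1β on the first and second slides, those with the large C3, CFB, C1R, C1S and CD55 differences. CD68, a macrophage marker among them, differed there by 2.68 and 2.26 on the log2 scale. The other leukocyte markers did not follow it. PTPRC differed by -0.13 and -0.44, and CD14 by -1.03 and 1.28, with a dim control on the second slide. CSF1R and CD3E were not well above background on the control and IL-1β arrays of these slides. From 2 to 5 of the leukocyte markers were well above background on an array. The summed signal of 4 fibroblast and pericyte markers ran from 0.198 to 8.87 in the controls and from 0.205 to 10.1 with IL-1β. With Empa it ran from 0.0747 to 5.37. COL1A2 and PDGFRB were well above background on 0 arrays. The high sums were mostly DCN, whose controls read -4.87, -4.73, 3.09 and 3.13 on the log2 scale. Those of the first and second slides were not well above background. Endothelial markers ran from 0.204 to 0.405 over all arrays, with PECAM1 and KDR above background nowhere. The arrays carry RNA of cultures labelled as established tubular lines. The part of these markers in the results was not tested, and in bulk RNA fewer cells of a type and less RNA per cell cannot be told apart.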

How the data were processed

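The authors hybridized RNA of each line and treatment in biological duplicates and read the arrays with Feature Extraction 9.5.3.1. Per the file headers, that software subtracted the background from the deposited intensities and detrended them, and nothing was normalized between arrays. Its marks (outlier, saturated, well above background) were used as deposited. The authors also deposited a table in log2 units described as quantile-normalized, used only as an alternative. The annotation in the files gives positions on hg19.

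Control and outlier spots were left out and the spots of a probe averaged. Signals were scaled to the 75th percentile of the array, given a floor of 1 signal unit and converted to log2, so the lowest values depend on that floor. Between 52.7% and 63.1% of probes were well above background on an array, and no member was saturated. The number of arrays limits the precision. A probe entered the test if both arrays of some group (line label and treatment) marked it well above background. The brightest such probe of a gene was taken, for 15717 genes. The design of the test was 1 effect per treatment plus the slide (6 residual degrees of freedom), fitted with limma 3.58.1 in R 4.3.3, with Benjamini-Hochberg adjustment over all genes and a threshold of 0.05. Deviations of arrays of a slide from their group means correlated with r from 0.592 to 0.906. Arrays of a replicate number within a label thus resembled each other. With 2 arrays per group the deviations of the replicates mirror each other. The replicates of a label also differed in expression, so these correlations cannot show a pairing by the slide itself. Where a probe was dim on one side, the fold is a lower bound from the higher of its own signal and the lowest signal well above background on that array.

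All 9 members with all their probes were named, with the other complement genes that passed, the 3 genes most like C3 and CFB, and IL-1β response genes as a check. The members, gene lists and fit were chosen with earlier results of these data known. The procedure was tested on simulated data. Figures were drawn with matplotlib 3.10.9. Slides of a replicate number were scanned on the same day. The alternatives were another normalization or background correction, the authors' table, other filters and floors, every probe, outlier spots kept, each array left out, 1 line label or scan day alone, no block, 6 groups with the block, and the methods' t-test. Leaving out each slide was added after seeing the data.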

Additional observations from a re-analysis of the deposited data

How the results depend on the processing

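CD59 and CFI kept their direction and stayed past the threshold under quantile normalization, normexp, the authors' table, other filters and floors, every probe tested, 6 groups with the replicate block, and each array or slide left out. Both calls were lost, with 0 members higher and 0 lower, without the replicate block, with the methods' t-test, with the arrays labelled RPTEC/TERT1 alone and with the slides of scan day 1 or scan day 2 alone. In these last 3 settings 0 of all genes were called, and the differences were 1.79, 1.90 and 2.05 for CD59 and -1.37, -1.32 and -1.66 for CFI. The arrays labelled HK-2 alone gave 1 member higher (CD59) and 0 lower. Members higher with IL-1β were 2 with normexp or with the authors' table (C3 added). In these settings 1928 and 1925 genes were called in either direction. Members higher were 3 with the filter on all 12 arrays (C3 and C1R added), which CFB and SERPING1 did not pass. With that filter 1642 genes were called. With an array or slide left out, members higher were 1 to 6. Under the HK-2 label, 1 member was called with quantile normalization, and 0 to 1 with an array left out. Genes called with IL-1β numbered 1817, against 7 without the block, 791 with 6 groups and the block, 45 by the methods' t-test, 159 with the HK-2 label alone, and 414 to 2894 with an array or slide left out, and those called with Empa 0 to 6. Uncalled Empa differences near 0 changed sign. C1S, at 0.01, was -0.048 with normexp, -0.15 with the authors' table, -0.23 with the RPTEC/TERT1 label alone, -0.14 on scan day 2 and -0.45 to 0.44 with an array left out. C1R, at -0.06, was 0.15 with the HK-2 label alone, 0.077 on scan day 1 and -0.55 to 0.41 with an array left out. CD59, at -0.07, was 0.20, 0.0038 and -0.20 to 0.078 in the same settings, and CD55, at -0.39, was -0.71 to 0.025 with an array left out. The causes were not tested. Dim probes limit CFB, SERPING1 and the further probes of C1S and CFI.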

Other observations

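Of the 29 other complement genes on the array that were not tested, 18 were well above background on no array. CFD, CFHR3, C5AR1 and THBD were so on 6 arrays each, and these 4 were chosen after their values were seen. No test was made of them. CFD (factor D), which cleaves factor B, was measured on the slides of HK-2 replicate 1 and of RPTEC/TERT1 replicate 2. Its log2 level there was -1.36 and -0.94 in the controls, -3.71 and -2.67 with IL-1β, and -0.01 and -0.14 with Empa. THBD (thrombomodulin), which promotes inactivation of C3b, was measured on HK-2 replicate 2 and on RPTEC/TERT1 replicate 1. Its level was -0.0041 and -0.04 in the controls, 1.76 and 1.63 with IL-1β, and -0.34 and -0.21 with Empa. CFHR3, a relative of factor H, read -2.15 and -2.92 in the controls of the same slides and -1.61 and -2.48 with IL-1β. C5AR1, the receptor of the C5a fragment, was well above background on the slides of replicate 2 of both labels, with -3.28 and -2.83 in the controls of RPTEC/TERT1 and HK-2 and -2.70 and -1.41 with IL-1β.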
